A study of Mus musculus with 86 samples.

Results

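The RNAs that encode the translation initiation factors (mouse gene symbols starting with Eif) and elongation factors (symbols starting with Eef) were followed in RNA-seq libraries made from the soma and neurite fractions of cultured mouse neuronal cells. All protein-coding genes of the annotation with such a symbol were taken, which gave 69 genes of 21921 protein-coding genes in the files, and another 10 genes with these symbols were left out because they are annotated as pseudogenes or other types. No measured value entered this choice, though it was made with earlier results of these data known. Of the 69 genes, 68 passed the filter on low counts in each knockout experiment and 65 in the transgene experiment. Eif2s3y did not pass in any of these experiments, and Eif4e1b, Eif4ebp3 and Eef1akmt3 passed only in the knockout experiments.

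The study asks how TDP-43, an RNA-binding protein encoded by Tardbp, affects the RNA content of neurites. CAD cells (a mouse catecholaminergic neuronal line) and N2A cells (a mouse neuroblastoma line) were used as edited clones. In these clones endogenous Tardbp had been inactivated and a single-copy HA-tagged TDP-43 transgene, switched off by doxycycline, had been added. The number of clones used per line is not stated. Cells of these clones without doxycycline are called wild-type and cells kept in doxycycline for 48 h are called knockout, so both groups carry the edited locus and the transgene, and only the knockout group saw the drug. In a separate experiment CAD cells expressed a doxycycline-induced, single-copy HA-tagged transgene with either the wild-type TDP-43 sequence or the ALS-associated Q331K change, and here both groups received the drug and kept their endogenous Tardbp gene. Each experiment had 4 groups (soma and neurite of 2 genotypes) of 3 libraries, 36 libraries in all. The labels give no animals or donors and do not describe replicates as separate clones. In the knockout experiments the p-values therefore measure the spread between cultures within a line. The transgene genotypes are separately made cell populations, selected with puromycin after integration and not described as cloned, so genotype and population cannot be told apart there. The total of estimated counts per library was 25009904 to 32895542 in CAD, 22726534 to 31911030 in N2A and 9783050 to 15870647 in the transgene cells.

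Tardbp was lower by 2.52 ± 0.08 log2 units (SE, n = 3 cultures per group) in the soma of CAD knockout cells and by 1.78 ± 0.08 in N2A, and its level in the transgene cells differed by only -0.02 ± 0.09 between genotypes. The files do not separate endogenous from transgene Tardbp reads. Of 9 neuronal markers, 6 reached 1 TPM (transcript abundance per length, scaled to the same total in every library) in each experiment, summing to between 562.6 and 1437 TPM per group. The 3 astrocyte markers summed to at most 2.27 TPM, the oligodendrocyte markers to at most 10.93 TPM and the microglial markers to at most 1.26 TPM in any group. The 4 fibroblast markers summed to 0.785 to 3.68 TPM in the knockout experiments and to 8.88 to 25.3 TPM in the transgene cells.

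Translation of an mRNA starts when the eIF4F complex (the cap-binding protein eIF4E, the scaffold eIF4G and the helicase eIF4A) recruits a small ribosomal subunit that carries eIF3, eIF1, eIF1A and the initiator tRNA bound to eIF2. The eIF2 kinases slow this step by phosphorylating eIF2, and the exchange factor eIF2B restores eIF2, while the 4E-BPs withhold eIF4E. Elongation is carried by eEF1, which delivers aminoacyl-tRNA, and by eEF2, which moves the ribosome. Several of these RNAs share with ribosomal protein mRNAs a 5' terminal oligopyrimidine (TOP) start, a C followed by a run of pyrimidines, and ribosomal protein mRNAs are known to be abundant in neuronal projections.

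For every gene the localization ratio (LR) is the log2 ratio of its neurite level to its soma level, with levels as CPM (counts scaled to library size) after TMM scaling, and a gene was called when its adjusted p was below 0.01 (edgeR quasi-likelihood test, Benjamini-Hochberg adjustment over all genes). An LR compares shares of the RNA in each fraction, so less RNA per neurite and fewer neurites cannot be told apart. The ribosomal protein range used here starts at the 5th percentile of the wild-type LRs of 80 cytosolic ribosomal protein genes, and a factor at or above it in a line is said to lie in the range. This is a description, with no test.

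The starts of 5 RNAs are shown first because these RNAs lay in the ribosomal protein range in both lines. Each run is the first 24 bases of the annotated transcript in GENCODE vM21 (build GRCm38), 5' to 3' on the strand of the gene, and capitals mark a run of at least 5 pyrimidines that begins with C within the first 6 bases. The windows are chr9:78481701-78481724 on the minus strand for Eef1a1, chr1:63177145-63177168 on the plus strand for Eef1b2, chr15:51865500-51865523 on the minus strand for Eif3h, chr4:129600625-129600648 on the minus strand for Eif3i and chr7:28981791-28981814 on the minus strand for Eif3k.
Eef1a1: ttcccgagggtgggggagaacggt
Eef1b2: cgctggccgcggcctcccggcgct
Eif3h: tcacggagcctcgtagttccgctt
Eif3i: agtCTTTTTCCggtcccactcaca
Eif3k: acaCCTCTCTTCCggtcctctagt
A run of this kind was present at the annotated start of Eif3i and Eif3k and not within these letters for the other 3. It was present for 13 of 69 factor genes (18.8%), 22 of 80 ribosomal protein genes (27.5%) and 11.2% of all protein-coding genes with an annotated start. Annotated starts can lie some bases from the start that cells use, which these files do not measure. As a comparison from just outside the CAD range, the start of Eif3f (chr7:108934417-108934440, plus strand), also an eIF3 subunit, is shown because its run begins at the first base.
Eif3f: CTCTTTCTCggcaagatggcttct

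In the wild-type soma, Eef1a1 was the most abundant factor RNA in all 3 experiments, with 4528 ± 926 TPM in CAD, 4449 ± 742 in N2A and 7308 ± 227 in the transgene cells (mean ± SD, n = 3). Eef1a1 encodes eEF1A, the carrier of aminoacyl-tRNA. Eef2, the translocase, was second with 1403 ± 263, 1613 ± 264 and 1650 ± 97.6 TPM, and Eef1b2, a subunit of the eEF1 exchange factor, was next with 670.2 ± 132.0, 668.4 ± 107.8 and 1173 ± 68.7 TPM. Eif5a followed in CAD with 533 ± 111 TPM and then Eif1 with 498 ± 98.1 TPM, and these neighbours in the order did not differ beyond their spread. In N2A the places of Eif1 (533 ± 85.6 TPM) and Eif5a (389 ± 74.7 TPM) were exchanged. At the other end, Eif4e1b, a cap-binding relative best known from germ cells, averaged 0.351 CPM in the CAD soma and 0.768 in the N2A soma. Eif4ebp3, a 4E-BP, averaged 0.507 and 0.961 CPM, and Eef1akmt3, a methyltransferase, 0.811 and 1.07 CPM.

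Most factor RNAs were enriched in neurites. In wild-type CAD cells 56 of 68 factors were higher in neurites and 5 were higher in the soma, with a median LR of 0.49, where 41.4% of all genes were called in either direction (23.7% higher) and the median of all genes was -0.02. In wild-type N2A cells 59 were higher and 6 lower with a median of 1.03, against 59.2% of all genes called (32.5% higher) and a median of -0.03. The 6 include the rare Eif4e1b, whose limit is given with the paralogs below. In the transgene cells with wild-type TDP-43, 36 of 65 were higher and 5 lower with a median of 0.38, against 27.5% of all genes (14.9% higher). The transgene count was 24 without replicate 1 and 25 without replicate 2.

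The 80 ribosomal protein RNAs were further out in neurites, with median LRs of 1.57 in CAD, 1.39 in N2A and 1.77 in the transgene cells, and 79 of 80 were called higher in each. The range began at an LR of 1.04 in CAD, 0.997 in N2A and 1.07 in the transgene cells. Within it lay 5 factors in CAD (5.23% of all genes did), 35 in N2A (14.3% of all genes) and 6 in the transgene cells (4.48% of all genes). The 5 of CAD, Eef1a1, Eef1b2, Eif3h, Eif3i and Eif3k, were also in the range in N2A and in the transgene cells. A further 30 factors were in the range in N2A only, and 33 were in it in neither line. Eif3i was just inside the CAD limit with an LR of 1.04, and the eIF3 subunits Eif3m (1.03) and Eif3f (1.01) were just outside. With protein-coding transcripts alone, an alternative chosen after seeing the data, 3 factors stayed in the range in both lines, Eef1b2, Eif3h and Eif3k. Without replicate 2 the count was 4 (Eif3i was out), and without replicate 3 it was 5 with Eif3f in place of Eif3i.

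**Figure D1:**
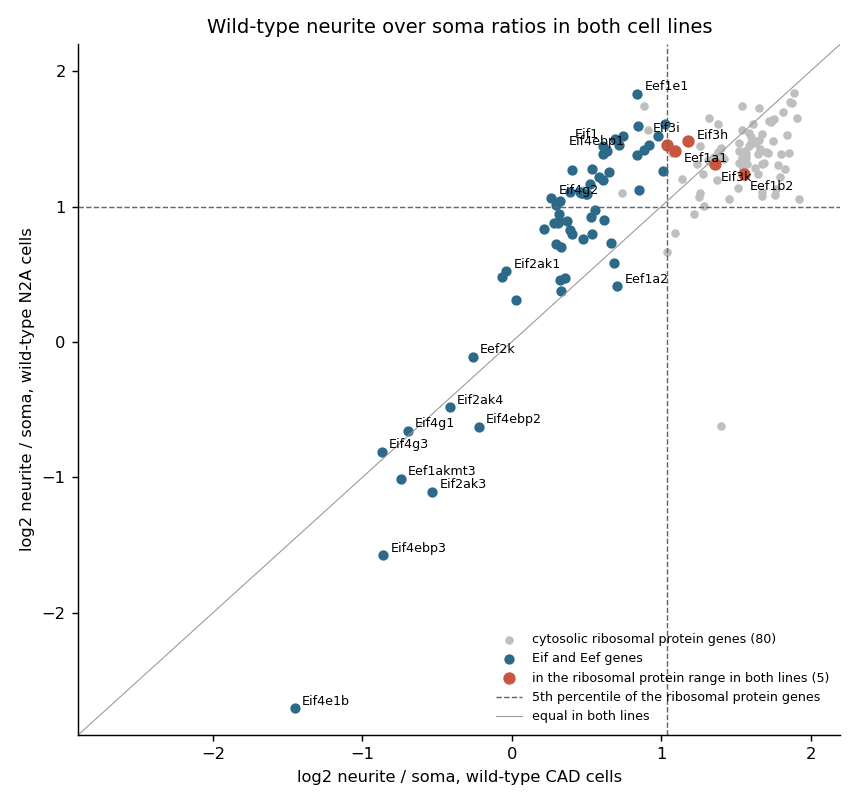
Each point is 1 gene, with its wild-type log2 neurite over soma ratio in CAD cells on the x axis and in N2A cells on the y axis, factor RNAs in blue or red and ribosomal protein RNAs in grey; dashed lines are the lower limits of the ribosomal protein range, 1.04 and 0.997. The 5 red points are the factors past both limits, and most blue points lie above the line of equal ratios while Eif4g1, Eif4g3 and Eif2ak3 lie below 0 on both axes.

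Eif3k, which encodes a small subunit of eIF3, had the highest wild-type LR among eIF3 RNAs in CAD. Its level was 65.3, 62.7 and 70.7 CPM in the wild-type CAD soma and 169.6, 178.4 and 162.1 CPM in the neurites. In N2A it was 63.2, 63.9 and 67.8 CPM in the soma and 176.0, 163.6 and 144.0 CPM in neurites. Soma and neurite libraries did not overlap in either line, and the LR was 1.36 ± 0.07 in CAD (adjusted p = 2.36e-10) and 1.31 ± 0.09 in N2A (adjusted p = 8.79e-09), with 1.53 ± 0.11 in the transgene cells.

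Eef1b2 had the highest LR of all factors in CAD. It measured 291.1, 266.0 and 309.9 CPM in the wild-type CAD soma against 842.2, 861.1 and 844.7 CPM in neurites, an LR of 1.56 ± 0.08. The N2A values were 264.9, 271.5 and 302.9 CPM in the soma and 690.6, 680.9 and 613.9 CPM in neurites, an LR of 1.24 ± 0.09. The groups were again far apart. Between 37.7% and 40.2% of the reads of Eef1b2 were assigned to transcripts not annotated as protein coding in these groups, so its level is that of the gene and not of the mRNA alone.

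Eef1a1 rose from 4691, 4665 and 5032 CPM in the CAD soma to 10112, 10475 and 10084 CPM in neurites. Its LR was 1.09 ± 0.08 in CAD, 1.41 ± 0.11 in N2A and 1.48 ± 0.12 in the transgene cells. Of the 31-base stretches of Eef1a1, 47.3% also occur in transcripts of other genes, mainly processed copies, so part of its count is uncertain. Its paralog Eef1a2, the form that replaces eEF1A1 in mature neurons and muscle, had lower LRs of 0.71 ± 0.08 in CAD and 0.41 ± 0.08 in N2A and was in the range in neither line.

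Eif3h and Eif3i, which encode further eIF3 subunits, completed the set. Eif3h measured 250.3, 243.0 and 275.2 CPM in the CAD soma and 553.8, 613.5 and 572.8 CPM in neurites, an LR of 1.18 ± 0.08, with 1.48 ± 0.08 in N2A. Eif3i measured 67.3, 60.4 and 67.3 CPM in the CAD soma and 130.1, 133.4 and 137.9 CPM in neurites, an LR of 1.04 ± 0.06, with 1.46 ± 0.09 in N2A.

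By role, all 14 eIF3 RNAs were called higher in neurites in both knockout lines, with LRs from 0.22 to 1.36 in CAD (median 0.65) and from 0.47 to 1.61 in N2A (median 1.23). In the transgene cells 9 of the 14 were. With length-scaled counts Eif3j1 was not called in either knockout line, and its N2A LR was -0.28. The 5 eEF1 RNAs were likewise all higher, with medians of 0.85 and 1.13. The RNAs of eIF2 and of other initiator tRNA carriers (5 of 5 tested), of eIF2B (5 of 5), of the eIF4A helicases and their cofactors (5 of 5), of start codon selection and subunit joining (6 of 6) and of eEF2, eIF5A and eEFSec (4 of 4) were also called higher in both lines. Their CAD medians lay between 0.31 and 0.59 and their N2A medians between 0.88 and 1.25.

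**Figure D2:**
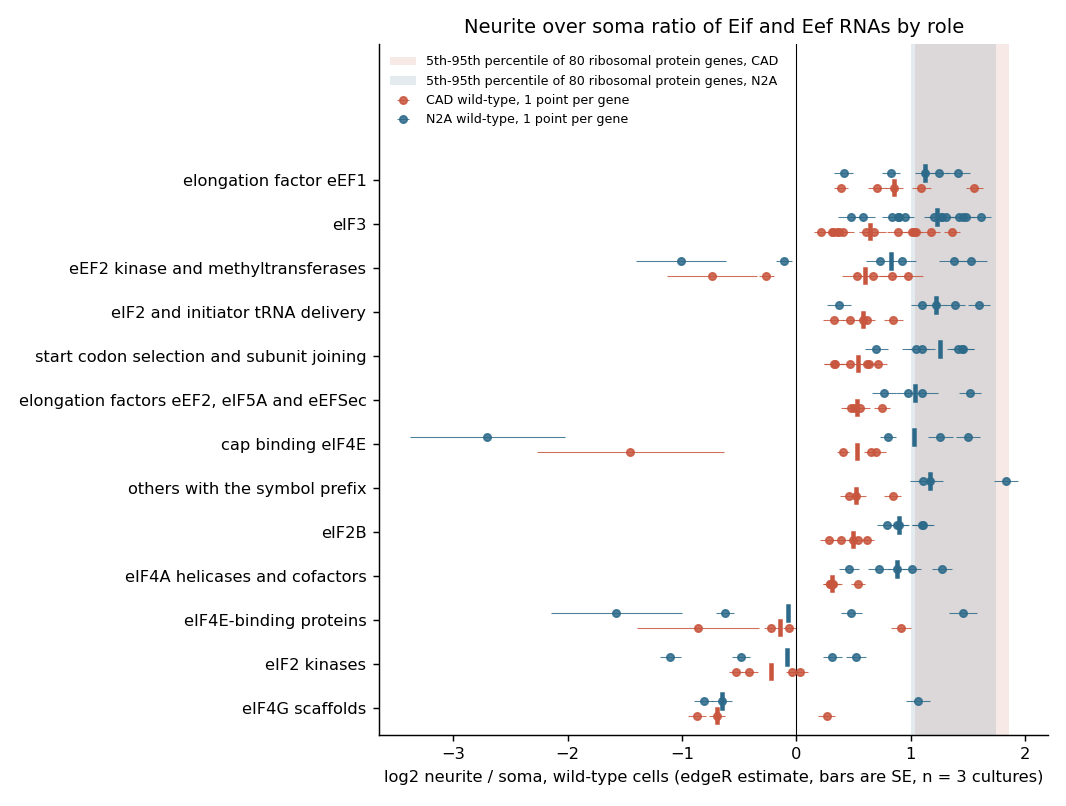
Wild-type log2 neurite over soma ratio (x axis) of each factor RNA, 1 point per gene with its SE (n = 3 cultures), in CAD (red) and N2A (blue), by role; thick ticks are group medians and shaded bands span the 5th to 95th percentile of 80 ribosomal protein genes. The eIF3 points are all above 0 with medians of 0.65 and 1.23, and the eIF4G scaffolds, eIF2 kinases and eIF4E-binding proteins hold most of the points below 0.

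The eIF4G, eIF2 kinase and 4E-BP groups held most of the RNAs that were higher in the soma. Of the eIF4G scaffolds, Eif4g1 measured 888.5, 922.2 and 959.5 CPM in the CAD soma and 605.5, 546.4 and 560.2 CPM in neurites, an LR of -0.69 ± 0.07 (adjusted p = 1.05e-06). In N2A it measured 762.6, 804.0 and 714.8 CPM in the soma and 514.7, 461.6 and 472.6 CPM in neurites, an LR of -0.65 ± 0.09. The fractions did not overlap in either line. Eif4g3 was also lower in neurites, with LRs of -0.87 ± 0.08 in CAD, -0.81 ± 0.08 in N2A and -0.42 ± 0.10 in the transgene cells. The other family member, Eif4g2, which lacks the eIF4E-binding region, had the opposite sign, with 0.26 ± 0.07 in CAD and 1.06 ± 0.11 in N2A. With the replicate number as a block the CAD value of Eif4g2 no longer passed (adjusted p = 0.0108).

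Among the eIF2 kinases, the endoplasmic reticulum kinase Eif2ak3 (PERK) had LRs of -0.53 ± 0.06 in CAD, -1.11 ± 0.09 in N2A and -1.16 ± 0.10 in the transgene cells, and the amino acid sensor Eif2ak4 (GCN2) had LRs of -0.41 ± 0.07, -0.48 ± 0.08 and -0.30 ± 0.08. All 6 values passed the test. With the replicate number as a block the Eif2ak4 value in the transgene cells no longer passed. Eif2ak1 (HRI, activated by heme shortage and mitochondrial stress) differed little between fractions in CAD, with an LR of -0.04 ± 0.05, and was higher in neurites in N2A with 0.52 ± 0.09. Of the 4E-BP RNAs, Eif4ebp1 was higher in neurites (0.92 ± 0.09 in CAD and 1.45 ± 0.12 in N2A), whereas Eif4ebp2, the main neuronal 4E-BP, was lower in N2A (-0.63 ± 0.08) and missed the threshold in CAD (-0.22 ± 0.07, adjusted p = 0.0124).

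Close paralogs that passed the filter had wild-type LRs of the same sign in each line, except in the eIF4G, 4E-BP and eIF4E sets. Eif5a and Eif5a2, which carry the hypusine residue, gave 0.74 ± 0.07 and 0.51 ± 0.10 in CAD and 1.52 ± 0.10 and 1.09 ± 0.14 in N2A. Eif1 and Eif1b, factors of start codon selection, gave 0.61 ± 0.07 and 0.72 ± 0.08 in CAD and 1.45 ± 0.10 in N2A for both. Eif4a1, Eif4a2 and Eif4a3 gave 0.54 ± 0.06, 0.32 ± 0.07 and 0.30 ± 0.06 in CAD. Eif4e, Eif4e2 and Eif4e3 gave 0.69 ± 0.09, 0.41 ± 0.05 and 0.65 ± 0.06 there. The rare Eif4e1b gave -1.45 ± 0.82 in CAD, which was not called, and -2.70 ± 0.68 in N2A, which was. Its N2A level was highest in the wild-type soma, with a knockout soma change of -1.52 ± 0.60. It may have passed the count filter through that group alone, so its N2A ratios are not independent of the filter and nothing is concluded from them. Eif3j1 and Eif3j2 share most of their sequence (94.9% of the 31-base stretches of Eif3j2 occur elsewhere), so their 0.36 ± 0.10 and 0.40 ± 0.10 in CAD are not separate measurements.

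The factor RNAs were further into neurites in N2A than in CAD. In a fit over the 24 libraries of both knockout experiments, the wild-type LR was higher in N2A for 36 factors and lower for 2, where 18.4% of all genes were called in either direction (13.6% higher and 4.82% lower), and the median difference was 0.54 over the factors, 0.04 over all genes and -0.16 over the ribosomal protein genes. Without replicate 2 no factor was called and without replicate 1 the count was 20. The number of clones per line is not stated, nor is whether the lines were processed together. Line, clone and any difference in processing therefore cannot be told apart.

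The largest differences were those of Eef1e1, a scaffold protein of the aminoacyl-tRNA synthetase complex, at 0.99 ± 0.14 (adjusted p = 3.94e-05), of Eif3j2 at 0.87 ± 0.18 and of Eif1 at 0.84 ± 0.13. The Eif3j2 value is uncertain, since the near-identical Eif3j1 differed by 0.12 ± 0.16, which was not called, and reads shared by these genes may be split between them. Eef1e1 measured 23.7, 25.9 and 27.0 CPM in the CAD soma and 44.4, 44.8 and 48.0 CPM in CAD neurites. In N2A it measured 9.6, 10.1 and 11.5 CPM in the soma and 38.0, 33.9 and 39.4 CPM in neurites. The N2A soma values are therefore the ones furthest from CAD, with a soma difference of -1.51 ± 0.11. The 2 factors with a lower LR in N2A were Eif2ak3 (-0.57 ± 0.12) and Eif4ebp2 (-0.40 ± 0.11). In the wild-type soma 37 factors were lower in N2A than in CAD and 3 were higher, against 51.2% of all genes called in either direction (21.2% higher, the rest lower), with a median of -0.33 over the factors and 0.07 over all genes. With upper-quartile scaling the soma split was 29 lower and 8 higher.

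The level that normalization sets as 0 bears on these LRs. With upper-quartile scaling the median of all genes moved from -0.03 to -0.33 in N2A and from -0.02 to -0.10 in CAD, and the median of the factors was then 0.73 in N2A and 0.40 in CAD. The distance between factors and ribosomal proteins is not touched by such a shift. Per culture, the median factor LR minus the median ribosomal protein LR was -1.10 ± 0.13 in wild-type CAD cells, -0.35 ± 0.10 in wild-type N2A cells and -1.38 ± 0.29 in the wild-type transgene cells (mean ± SD, n = 3 cultures).

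**Figure D3:**
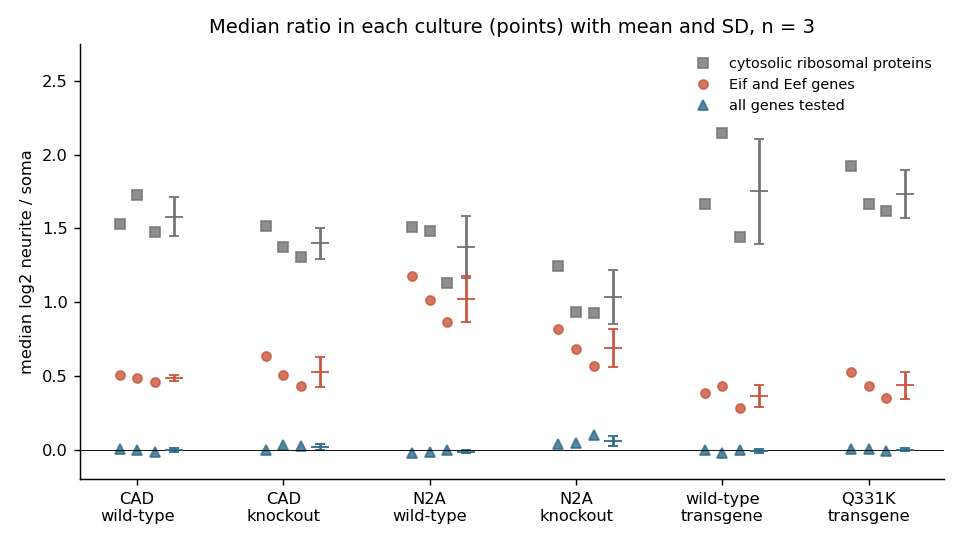
Median log2 neurite over soma ratio (y axis) in each of 3 cultures per group for the factor RNAs (red), 80 ribosomal protein RNAs (grey) and all genes tested (blue), with mean and SD beside the points. The factor medians lie well below the ribosomal protein medians in CAD and the transgene cells (0.49 against 1.58 in wild-type CAD) and closer to them in N2A (1.02 against 1.38).

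In knockout cells 54 factors were higher in neurites and 7 lower in CAD, with a median LR of 0.50 (24.6% of all genes were higher and 19.0% lower), and 52 were higher and 6 lower in N2A, with a median of 0.67 (38.5% in either direction, 25.3% and 13.1%). With Q331K TDP-43 42 of 65 were higher and 5 lower, with a median of 0.42 (16.7% and 14.5%). The N2A count was 33 without replicate 2 and the Q331K count 23 without replicate 1.

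The study's main question was whether loss of TDP-43 changes these ratios. No factor was called for a change of LR with the genotype in CAD, N2A or the transgene cells (edgeR). In CAD 5 of 68 factors had an unadjusted p below 0.05, as did 1824 of 17343 genes. At FDR 0.01 edgeR called 0.432% of all genes there, and DESeq2 called 0 factors and 1.29% of all genes. In N2A 43 of 68 factors had an unadjusted p below 0.05, as did 5580 of 17912 genes. At FDR 0.01 0.1% of all genes were called there (0.0893% higher and 0.0112% lower). In the transgene cells 1 of 65 factors and 605 of 13940 genes had an unadjusted p below 0.05. No gene was called there by edgeR at FDR 0.01, and DESeq2 called no factor and 0.0% of all genes. DESeq2 called 32 factors in N2A (1 higher, 31 lower), where it called 10.7% of all genes. In simulated data a 1-unit change of LR on the log2 scale was recovered for 57.5% of changed genes in CAD, 53.8% in N2A and 56.9% in the transgene cells. The changed genes were drawn from all genes that passed the filter, and among such genes smaller changes would often be missed. Recovery for the factor RNAs alone was not simulated.

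In N2A the factor RNAs nevertheless leaned one way. The change was below 0 for 61 of 68 factors, with a median of -0.36, the same as the -0.36 of the ribosomal protein genes, against -0.01 over all genes. With upper-quartile scaling the medians were -0.23, -0.23 and 0.11. For 33 of 68 factors every knockout culture had a lower LR than every wild-type culture (19.6% of all genes did), and for 2 factors every one was higher, Eif2ak3 and Eif4e1b (14.9% of all genes). Eif4e1b may have passed the count filter only through the wild-type soma, where it was highest, so its place here is not independent of the filter. At an FDR of 0.05 18 factors passed, 17 of them lower. Of all 17912 genes, 560 were higher and 955 lower at that threshold, and of the 80 ribosomal protein genes 1 was higher and 10 lower. The median of the factor LRs was 1.02 ± 0.16 in the 3 wild-type cultures and 0.69 ± 0.13 in the 3 knockout cultures, and that of the ribosomal proteins 1.38 ± 0.21 and 1.04 ± 0.18, so the distance between them was -0.35 in both genotypes. The share of TPM from mitochondrially encoded protein-coding genes moved with the same groups, from 5.16% in wild-type to 12.1% in knockout neurites and from 10.6% to 16.1% in the soma, and its part in the result was not tested.

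Single factors differed in the fraction that moved. Eif3h measured 181.9, 190.9 and 203.0 CPM in the wild-type soma and 261.2, 295.7 and 301.7 CPM in the knockout soma, while its neurite values were 559.3, 550.9 and 499.2 CPM in wild-type and 571.5, 558.4 and 552.1 CPM in knockout cells. The soma groups did not overlap and the neurite groups did, and the LR change was -0.51 ± 0.11 (adjusted p = 0.0319). For Eif1 the neurite groups did not overlap and the soma groups did, with 867.6, 765.9 and 778.9 CPM in wild-type and 645.3, 596.0 and 679.6 CPM in knockout neurites. Its soma values were 279.1, 272.6 and 331.04 CPM in wild-type and 308.8, 338.8 and 374.6 CPM in knockout cells. The changes were -0.33 ± 0.10 in neurites and 0.21 ± 0.10 in the soma, neither called, and the LR change was -0.54 ± 0.14 (adjusted p = 0.0387). The PERK gene Eif2ak3 was the 1 factor with a higher LR at an FDR of 0.05, with a change of 0.49 ± 0.13 (adjusted p = 0.0387), and its neurite values were 28.1, 27.9 and 31.6 CPM in wild-type and 35.7, 32.0 and 41.3 CPM in knockout cells, which do not overlap.

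In CAD the median LR change of the factors was 0.00, that of the ribosomal protein genes -0.17 (-0.25 without replicate 1 and -0.095 without replicate 2). The cultures did not overlap for 3 factors with the knockout higher (Eif2ak1, Eif2b1 and Eif4a2, where 6.88% of all genes did so) and for 3 with the knockout lower (Eif3f, Eif3k and Eif4ebp2, where 9.19% did so). Eif4ebp2 had the smallest unadjusted p among these, with a change of -0.35 ± 0.10 (adjusted p = 0.125). In the transgene cells the median change was 0.03 over the factors and -0.02 over the ribosomal protein genes, and without 1 replicate these ran from -0.01 to 0.085 and from -0.131 to 0.203. Q331K cultures did not overlap wild-type ones with the LR higher for Eef1e1, Eif3j2, Eif4g2 and Eif5a2 (5.43% of all genes did so) and with it lower for Eef2k (5.95%).

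The 5 factors in the ribosomal protein range had LR changes in CAD of -0.05 ± 0.11 (Eef1a1), -0.14 ± 0.11 (Eef1b2), -0.15 ± 0.11 (Eif3h), 0.01 ± 0.09 (Eif3i) and -0.25 ± 0.09 (Eif3k), with a median of -0.14. The N2A values were -0.46 ± 0.15, -0.25 ± 0.13, -0.51 ± 0.11, -0.44 ± 0.13 and -0.39 ± 0.12 in the same order, with a median of -0.44. The 30 factors in the range in N2A only had a median of -0.45 in N2A and 0.03 in CAD, and the 33 in neither had -0.19 and -0.02. Ribosomal protein genes had -0.36 and -0.17. The factors were grouped by their wild-type LR, which also enters the LR change. These medians are therefore not independent of the grouping, and no conclusion is drawn from how they differ between groups. None of these differences between the lines was called for a single factor. Testing the difference of the knockout changes between lines called 0 of 68 factors and 0.203% of all genes in edgeR. An unadjusted p below 0.05 was found for 37 factors and for 3649 of 19700 genes. DESeq2 called 2 factors and 1.68% of all genes.

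Levels were also compared between genotypes within each fraction. Only in the N2A soma was the share of factors that rose above that of all genes (39.7% against 10.9%). It was 7.35% against 11.2% in the CAD soma, 11.76% against 11.77% in CAD neurites and 1.47% against 6.48% in N2A neurites. In the N2A soma 27 factors rose and 1, Eif2ak4, fell, where 16.1% of all genes were called in either direction (10.9% higher and 5.15% lower), and the median change was 0.31 over the factors, 0.36 over the ribosomal protein genes and -0.02 over all genes. Of the eIF3 RNAs, 9 of 14 rose. The count rested on single cultures: without replicate 2 it was 1 and without replicate 3 it was 13. In N2A neurites Eif2ak1 rose, and Eif2b3, Eif2s2 and Eif4ebp1 fell, where 11.6% of all genes were called (6.48% higher and 5.1% lower). Here leaving out replicate 1, 2 or 3 gave counts of 1, 0 and 2, and upper-quartile scaling gave 3 rises and 2 falls.

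In CAD 5 factors rose and 1 fell in the soma, where 22.8% of all genes were called (11.2% higher and 11.6% lower), and 8 rose and 6 fell in neurites, where 25.3% were called (11.8% higher and 13.5% lower). With upper-quartile scaling the soma split was 5 and 2. With DESeq2 it was 7 and 4 in the soma, where 25.8% of all genes were called, and 12 and 10 in neurites, where 28% were. Without replicate 2 both counts were 1, and without replicate 1 the neurite count was 6. In the transgene cells no factor was called in either fraction and neither was any other gene in edgeR. DESeq2 called no factor there, with 0.0% of all genes called in the soma and 0.1% in neurites. An unadjusted p below 0.05 was found there for 4 of 65 factors in each fraction. Of all 13940 genes, 995 had one in the soma and 1372 in neurites.

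Among the called factors Eif2ak1 had the largest rise in both lines and in both fractions. In CAD it measured 42.7, 43.6 and 45.5 CPM in the wild-type soma and 69.5, 72.0 and 70.2 CPM in the knockout soma. In CAD neurites it measured 42.4, 44.8 and 41.4 CPM in wild-type and 72.7, 75.0 and 75.6 CPM in knockout cells. The groups did not overlap and the spread within each was small, with changes of 0.68 ± 0.05 in the soma (adjusted p = 6.51e-08) and 0.80 ± 0.05 in neurites (adjusted p = 1.45e-08).

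In N2A the same RNA measured 26.5, 26.3 and 27.2 CPM in the wild-type soma and 41.1, 49.8 and 48.4 CPM in the knockout soma. Its N2A neurite values were 41.1, 38.4 and 35.4 CPM in wild-type and 61.1, 53.9 and 55.5 CPM in knockout cells. These groups did not overlap either, with changes of 0.80 ± 0.09 (adjusted p = 1.29e-05) and 0.57 ± 0.09 (adjusted p = 0.000266). Since both fractions rose, its LR changed by 0.11 ± 0.07 in CAD and -0.23 ± 0.12 in N2A, neither of which was called. With the Q331K transgene the soma values were 50.1, 54.0 and 55.9 CPM against 51.2, 49.6 and 54.7 CPM with the wild-type transgene, a difference of 0.04 ± 0.07.

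**Figure D4:**
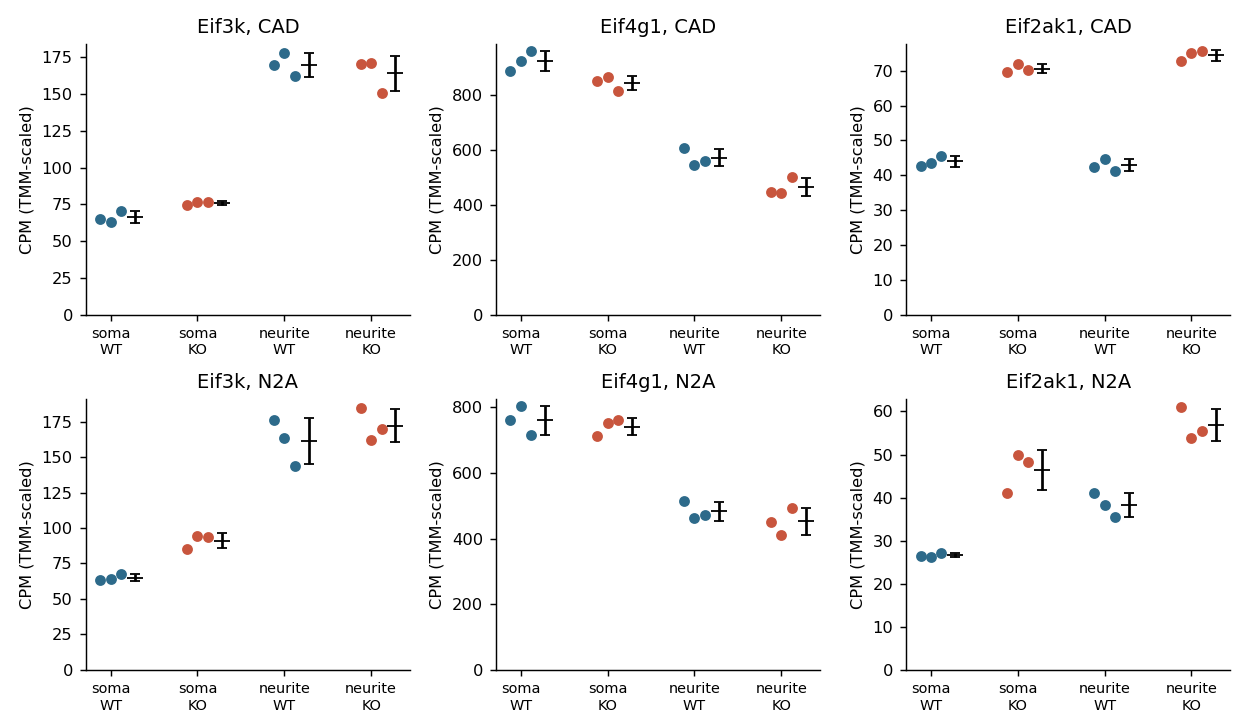
Level in CPM after TMM scaling (y axis, from 0) of Eif3k, Eif4g1 and Eif2ak1 in each library of the CAD (top) and N2A (bottom) knockout experiments, wild-type (WT) in blue and knockout (KO) in red, with mean and SD (n = 3). Eif3k is higher and Eif4g1 lower in neurites than in the soma of both lines, and the knockout values of Eif2ak1 lie above the wild-type values in every panel.

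Of the other factors that rose in the CAD soma, Eif2d, an alternative initiator tRNA carrier, changed by 0.49 ± 0.09, Eif1ad by 0.32 ± 0.07, Eif3i by 0.29 ± 0.06 and Eif3g by 0.26 ± 0.06. In CAD neurites, beside Eif2ak1, the largest rises were those of Eif2b1, a regulatory subunit of eIF2B, at 0.46 ± 0.09 and of Eif3g, an RNA-binding subunit of eIF3, at 0.35 ± 0.06. Eif2b1 measured 19.4, 16.8 and 19.2 CPM in wild-type and 27.8, 24.4 and 23.7 CPM in knockout neurites, which do not overlap.

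The largest fall in CAD neurites was that of Eif4g3, from 221.2, 203.8 and 188.6 CPM to 134.7, 139.4 and 156.8 CPM, a change of -0.51 ± 0.08 (adjusted p = 8.45e-05). Eif4g1 fell there by 0.30 ± 0.07, Eif2ak4 by 0.30 ± 0.08 and Eif4ebp2 by 0.31 ± 0.07. These 4 RNAs had a wild-type LR below 0 in CAD, and the other 2 that fell there, Eif4e3 (by 0.21 ± 0.06, adjusted p = 0.00948) and Eef1e1, had one above 0. In N2A neurites the values for Eif4g1 and Eif4g3 were -0.10 ± 0.09 and -0.21 ± 0.08, neither called. Eef1e1 fell in the CAD soma by 0.45 ± 0.08 and in CAD neurites by 0.32 ± 0.08. Its neurite value turned to 0.22 with length-scaled counts, and the share of its neurite reads assigned to noncoding transcripts was 16.2% with TDP-43 and 29.6% without it. In N2A the same gene rose in the soma by 0.45 ± 0.11, from 9.6, 10.1 and 11.5 CPM to 13.5, 12.8 and 16.5 CPM.

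Eif4a2, an eIF4A helicase abundant in brain, rose in CAD neurites. It measured 188.5, 191.3 and 206.7 CPM in wild-type and 261.2, 240.2 and 224.9 CPM in knockout neurites, a change of 0.31 ± 0.07 (adjusted p = 0.00313), and 0.01 ± 0.07 in the soma. The share of its neurite reads on transcripts not annotated as coding was 27.8% with TDP-43 and 36.2% without it, and 26.9% and 33.3% in the soma. The share thus differed in both CAD fractions, and the level in neurites only. In N2A the shares were 37.7% and 37.3% in neurites and 34.2% and 36.1% in the soma. No test of these shares was run.

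In N2A, after Eif2ak1, the largest soma rises were those of Eif3g (0.66 ± 0.09) and Eif3l (0.66 ± 0.08). Eif3g measured 64.2, 69.2 and 69.6 CPM in wild-type and 94.7, 110.7 and 115.2 CPM in knockout soma, and Eif3l measured 96.7, 98.0 and 105.4 CPM against 140.1, 161.0 and 172.8 CPM. Neither gene's groups overlapped. Eif2ak4 fell from 60.3, 57.8 and 53.3 CPM to 47.9, 44.2 and 43.6 CPM, a change of -0.34 ± 0.08 (adjusted p = 0.00515).

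The 3 falls in N2A neurites were those of Eif4ebp1 (-0.49 ± 0.12, adjusted p = 0.00937), Eif2b3 (-0.38 ± 0.09, adjusted p = 0.0074) and Eif2s2, the beta subunit of eIF2 (-0.38 ± 0.09, adjusted p = 0.00966). Eif4ebp1 measured 301.9, 301.4 and 278.6 CPM in wild-type and 208.3, 186.4 and 235.0 CPM in knockout neurites, and Eif2s2 measured 515.6, 565.0 and 528.1 CPM against 410.6, 435.2 and 390.2 CPM. The groups did not overlap for either gene.

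**Figure D5:**
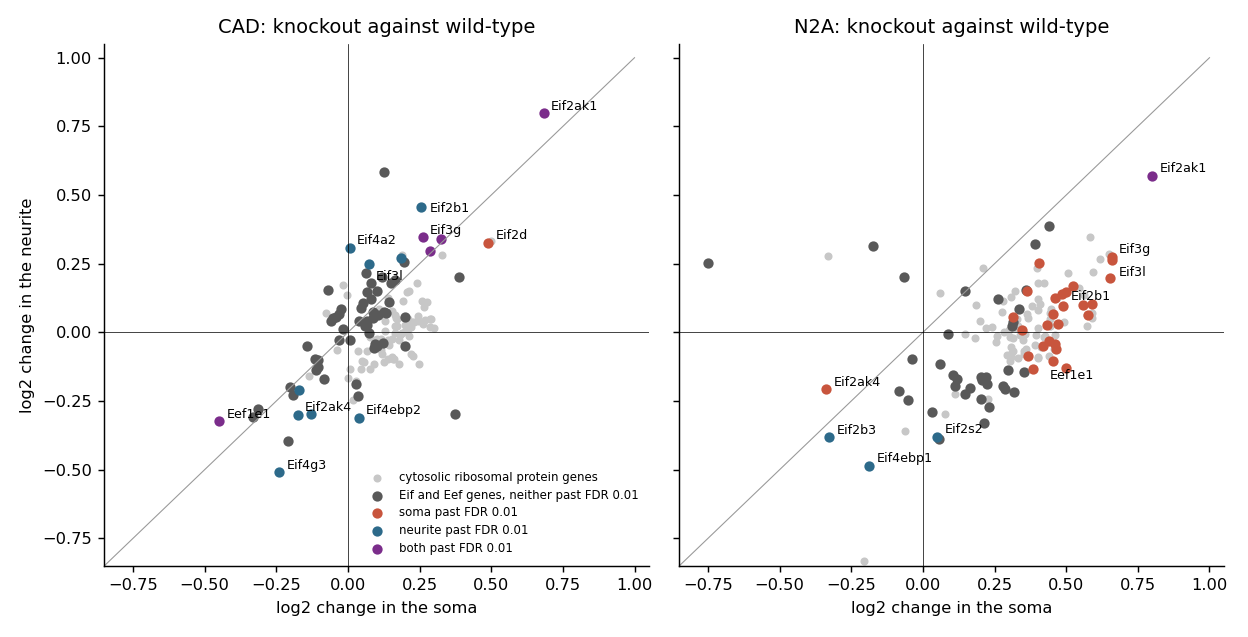
Log2 change with the knockout in the soma (x axis) and in the neurite (y axis) for each factor RNA, coloured by the fraction in which it was called, and for ribosomal protein RNAs in light grey, in CAD (left) and N2A (right); Eif4e1b and Eif4ebp3 lie outside the N2A panel. Eif2ak1 is at the upper right of both panels (0.68 and 0.80 in CAD, 0.80 and 0.57 in N2A), and the N2A factors lie mostly to the right of 0 along with the ribosomal protein genes.

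The other genes of the translation machinery gave the following. Of 23 other translation genes tested, 15 were higher and 2 lower in wild-type CAD neurites with a median LR of 0.42, and 19 and 2 in N2A with a median of 0.92. The 10 mitochondrial translation factors, whose proteins act inside mitochondria, had medians of 0.35 and 0.56. Of these, 7 were called higher and 0 lower in CAD, and 6 higher and 2 lower in N2A. In the wild-type transgene cells 8 of the 23 were higher and 3 lower (median 0.14), and 1 of the 10 was higher (median 0.09). In the N2A knockout soma 8 of the 23 and 2 of the 10 rose. The 9 factors named in textbooks for a TOP start, all of them among the 68, had median LRs of 0.89 in CAD and 1.24 in N2A, and all 9 were called higher in both. A pyrimidine run of the kind shown above was present at the annotated start of 1 of them (11.1%), near the 11.2% of all protein-coding genes.

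Sequence features that the choice of genes did not use were set beside the ratios. Over the 68 factors the wild-type LR fell with the length of the longest annotated transcript, with a Spearman rho of -0.55 in CAD and -0.55 in N2A, and of -0.54 over 65 factors in the transgene cells. For coding length the values were -0.38, -0.48 and -0.38. The points share libraries, so this is a description. The median longest transcript was 1295 bases for the 5 factors in the range in both lines, 2156 for the 30 in N2A only and 3383 for the 33 in neither. Eif4g1, at 5638 bases, and Eif3k, at 909 bases, follow that order. Other long or short transcripts do not. Eif4g2, at 7995 bases, had LRs of 0.26 in CAD and 1.06 in N2A. The rare Eif4ebp3, at 744 bases, had LRs of -0.86 and -1.58, neither called.

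TDP-43 binds UG-rich RNA, so the 3' UTRs were searched on the transcribed strand for GUGUG, for its shifted form UGUGU and also for GUAUG, with overlapping matches counted. GUGUG was present in 71.0% of the factor genes, 38.8% of the ribosomal protein genes and 64.5% of all protein-coding genes. The median density of the 3 motifs together was 4.48 per kb over the factors, 3.75 over ribosomal protein genes and 4.21 over all protein-coding genes. The density had a Spearman rho with the LR change of -0.12 in CAD, 0.17 in N2A and 0.00 in the transgene cells, over the same genes as above. The stretches of 30 bases below hold the most motif letters in the 3' UTRs of the factor with the highest density (Eif4e2, 40.0 per kb), of a factor that rose in CAD (Eif1ad, 29.8 per kb) and of the most abundant factor (Eef1a1, 14.04 per kb). They are written as DNA from GENCODE vM21 (GRCm38), with capitals for bases inside a match. They lie at chr1:87239455-87239484 on the plus strand, chr19:5371183-5371212 on the plus strand and chr9:78478560-78478589 on the minus strand.
Eif4e2: GTGTGTGTGTGTGTGTGTGTGTGTGTGTGT
Eif1ad: TGTGTGTGTGTGTGTGTGTGTGTGTGTGTG
Eef1a1: gaatgttgtggaccatttttttTGTGTGTG
Eif4e2, the eIF4E homologue that represses translation, had LR changes with the knockout of -0.08 ± 0.07 in CAD and -0.38 ± 0.10 in N2A, and level changes of -0.08 ± 0.05 in the CAD soma and -0.17 ± 0.05 in CAD neurites, none of them called. Eif1ad was called in both CAD fractions, with 15.5, 14.8 and 16.3 CPM in the wild-type and 18.9, 19.97 and 19.5 CPM in the knockout soma. A match is not a measured binding site.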

How the data were processed

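PolyA-selected RNA of soma and neurite fractions, separated on porous membranes, was sequenced. The authors trimmed reads with cutadapt and quantified transcripts with Salmon (per the labels, which give the build mm10 and no tool versions), and deposited estimated counts and TPM (length-normalized abundance) per transcript. Here transcripts were summed to genes with GENCODE vM21 (GRCm38), and counts were rounded. Reads of transcripts without a gene were at most 0.129% of a library. The members and gene lists were chosen with earlier results of these data known.

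Counts were tested with edgeR 4.0.16 (TMM scaling, filterByExpr, quasi-likelihood F test, Benjamini-Hochberg over all genes tested, FDR 0.01) per experiment and, for comparisons of lines, over 24 libraries in 8 groups. SE is the absolute log2 change divided by the square root of F. The study's methods test LR changes with another tool; the interaction term stands in for it here. TPM values rank genes only within the soma, since transcripts of genes not annotated as protein coding made up 56.6% of TPM in wild-type CAD neurites against 33.9% in the soma. Genes named are those with an LR change called, those in the ribosomal protein range in both lines, the 5 lowest LRs, the 3 largest called rises and falls per experiment and fraction, the most abundant gene of each role, fixed paralog sets, and the 3 largest called differences between lines in each direction; others were named after their values were seen (Eif3f and Eif3m). Correlations of same-numbered libraries' deviations were 0.111 to 0.541 in N2A, all above 0.1, so the numbers pair the N2A libraries. They were also all above 0.1 between the fractions of wild-type CAD cells (0.328 to 0.433) and between the genotypes in the soma of CAD (0.200 to 0.548) and of the transgene cells (0.189 to 0.422), and not for the other CAD and transgene groups compared, where the lowest values ran from -0.196 to 0.041. The replicate pairs compared (36) all differed by more than sampling noise. Alternatives were DESeq2 1.42.0, upper-quartile scaling, other count filters, length-scaled counts, protein-coding transcripts only, an FDR of 0.05, a replicate block and leaving out each replicate. The fits were tested on simulated counts.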

Additional observations from a re-analysis of the deposited data

Results flagged for a closer look

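The wild-type LR differed between the lines for 36 factors in 1 direction and 2 in the other (edgeR interaction of fraction and line, FDR 0.01), and 5 of these are named in the report. They are Eef1e1 (0.99), Eif3j2 (0.87, a gene that shares most of its sequence with Eif3j1, which was not called) and Eif1 (0.84), higher in N2A, and Eif2ak3 (-0.57) and Eif4ebp2 (-0.40), lower in N2A. No factor was called without replicate 2. Groups held 3 libraries each, too few for a check of single libraries against the others.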

How the results depend on the processing

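Values below are counts of factor RNAs called, unless a median LR is named, and the cause of each shift was not tested. Coding-transcript and range alternatives under upper-quartile scaling were chosen after seeing the data. In CAD the soma count of 6 was 11 with DESeq2 and 16 at FDR 0.05, and 1 to 6 without 1 replicate. The CAD neurite count of 14 was 22 with DESeq2, 9 with no filter, 23 at FDR 0.05 and 1 to 9 without 1 replicate. Of all 17343 CAD genes, 2759 were higher and 2913 lower in the soma at FDR 0.05, and 3002 and 3264 in neurites. For the N2A change of LR it was 32 with DESeq2, 4 with no filter, 1 with coding transcripts and 18 at FDR 0.05. The N2A soma count was 1 to 21 and the knockout LR count 33 to 55 without 1 replicate. The N2A neurite count of 4 was 7 with a minimum of 10 counts, 7 with coding transcripts, 1 with length-scaled counts, 11 at FDR 0.05 and 0 to 2 without 1 replicate. Of all 17912 N2A genes, 1930 were higher and 1839 lower in neurites at FDR 0.05. Without 1 replicate the transgene counts were 24 to 40 (wild-type) and 23 to 44 (Q331K), and the count for the lines 0 to 31. DESeq2 called 2 for the difference of knockout changes. The median LR of factors was 0.40 (upper quartile), 0.36 (coding) and 0.46 to 0.49 (without 1 replicate) in CAD, 0.73 and 0.76 in N2A, and 0.31 with length-scaled counts in the transgene cells, and that of ribosomal proteins in N2A was 1.09 and 1.08. The range held 2 factors in both lines from the 10th percentile, 34 from the lowest ribosomal protein gene and 3 with coding transcripts.

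Named genes reversed in 9 alternatives, none of them a called value other than Eef1e1 and Eif3j1. These were Eef1e1 in CAD neurites (0.22) and Eif3j1 in N2A (LR -0.28), both with length-scaled counts. The others were LR changes, each over leaving out 1 replicate: Eif3i in CAD ran from -0.09 (without replicate 1) to 0.079, and was -0.017 with coding transcripts. In the transgene cells Eef1a1 ran from -0.119 to 0.146, Eef1b2 from -0.179 to 0.164 and Eif3i from -0.278 to 0.092 (the highest each without replicate 2), and Eif3k from -0.166 (without replicate 3; -0.024 without replicate 1) to 0.265. With the replicate block the N2A change of LR stayed at 0 called, no count moved by over 1.5 times, and calls named in the report were lost for Eif2ak4 in the transgene cells, Eif4g2 in CAD and Eif4e3 in CAD neurites (adjusted p = 0.0107). Depth limits the genes under about 1 CPM, such as Eif4e1b, whose LR had an SE of 0.82 in CAD.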
